A study of Homo sapiens with 12 samples.

Results

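The 10 genes described here encode reductases of families with members known to turn the side-chain ketone of anthracyclines into an alcohol. They are the aldo-keto reductases AKR1A1, AKR1B1, AKR1B10, AKR1B15, AKR1C1, AKR1C2, AKR1C3 and AKR7A2 and the carbonyl reductases CBR1 and CBR3. They were listed by name as such reductases, with earlier results of these data known, and all 10 symbols were found among the 58735 genes listed. The activity of each enzyme on anthracyclines was not tested. RNA-seq was made from 12 libraries of human breast cancer cells, 3 in each of 4 groups. The parent, SK-BR-3, is an established HER2-amplified breast cancer line. From it the authors derived SK/EPI, which resists epirubicin, by long exposure to rising doses of the drug. The other groups were SK/EPI cells transfected with siRNA for 48 h, either against BCRP, the drug efflux pump encoded by ABCG2 (SK/EPI-siBCRP), or as a control (SK/EPI-siNC). SK/EPI is a single resistant line, so what belongs to resistance and what belongs to this line cannot be told apart. Both siRNA groups were resistant cells that had also been through transfection, and the labels name no transfection for SK-BR-3 and SK/EPI cells.

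Anthracyclines such as epirubicin and doxorubicin carry a ketone on the side chain of their ring system. Aldo-keto reductases (AKRs), which fold as barrels, and carbonyl reductases of the short-chain dehydrogenase/reductase (SDR) family reduce this ketone with NADPH to a secondary alcohol such as doxorubicinol or epirubicinol, which generally binds DNA less well and kills tumour cells less than the parent drug. The same enzymes reduce sugars, lipid aldehydes, retinal, prostaglandins and steroids, and several AKR genes are known targets of the transcription factor NRF2.

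The genes lie at 5 places in the GRCh38 genome in the GENCODE 29 annotation. AKR1B1 (ENSG00000085662, minus strand, 134442350 to 134459284), AKR1B10 (ENSG00000198074, plus strand, 134527592 to 134541408) and AKR1B15 (ENSG00000227471, plus strand, 134549136 to 134579875) are neighbours on chromosome 7. AKR1C1 (ENSG00000187134, plus strand, 4963253 to 4983283), AKR1C2 (ENSG00000151632, minus strand, 4987400 to 5018031) and AKR1C3 (ENSG00000196139, plus strand, 5035354 to 5107686) are neighbours on chromosome 10. CBR1 (ENSG00000159228, 36069941 to 36073166) and CBR3 (ENSG00000159231, 36134912 to 36146566) both lie on the plus strand of chromosome 21. AKR1A1 (ENSG00000117448, plus strand, 45550543 to 45570049) and AKR7A2 (ENSG00000053371, minus strand, 19303965 to 19312146) lie apart from each other on chromosome 1.

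Some of these genes are near copies of each other, which bears on the values of those copies. The coding sequences of AKR1C1 and AKR1C2 were identical at 953 of 972 positions (98.05%), with one unbroken identical run of 189 bases. AKR1C3 was 91.5% identical to AKR1C1 and 91.05% identical to AKR1C2. The 90-base stretch of the coding sequence with the most differences between AKR1C1 and AKR1C2, positions 73 to 162, is shown from the GENCODE 29 transcripts because only reads over such places can be told apart, and the capitals mark the 10 bases that differ.
AKR1C1: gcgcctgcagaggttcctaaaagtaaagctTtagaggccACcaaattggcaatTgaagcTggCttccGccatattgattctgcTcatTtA
AKR1C2: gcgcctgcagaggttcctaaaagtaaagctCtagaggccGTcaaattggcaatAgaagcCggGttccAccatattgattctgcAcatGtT
Of all stretches of 100 bases in the exons of AKR1C1 and AKR1C2, 16.7% and 23.1% also occurred in the exons of another gene, for the most part in each other. In AKR1C3 the share was 1.75%.

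AKR1B10 and AKR1B15 were less alike. Their coding sequences were 86.2% identical over the whole alignment, with 59 differing bases and 84 bases in gaps, and their longest identical run was 116 bases. Only 1.59% of the 100-base stretches of AKR1B10 and 0.527% of those of AKR1B15 occurred in another gene. The following 90 bases, positions 848 to 937 of the AKR1B10 and 932 to 1021 of the AKR1B15 coding sequence, run from a shared stretch into the place where they differ most, with the 11 differing bases in capitals.
AKR1B10: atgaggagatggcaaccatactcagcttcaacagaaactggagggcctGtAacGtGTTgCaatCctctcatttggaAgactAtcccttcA
AKR1B15: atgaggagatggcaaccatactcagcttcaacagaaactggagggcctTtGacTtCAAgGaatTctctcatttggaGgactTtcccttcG
AKR1A1 and AKR1B1 shared no stretch of 100 bases with another gene, and AKR7A2 shared 0.254% of its stretches, with AKR7L and AKR7A3. CBR1 and CBR3 were 77.6% identical to each other in coding sequence, and their shared stretches lay in genes on the opposite strand of the same place. Of the exonic bases of CBR1, 464 of 2450 (18.9%) overlapped exons of AP000688.1, and of those of CBR3, 493 of 1169 (42.2%) overlapped exons of CBR3-AS1. The library kit named in the labels does not mark strand, so reads of these overlapping parts cannot be assigned to one strand.

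The authors deposited normalized values with no unit named. They were read as FPKM, reads scaled to exon length and to library size, from their whole-read steps. Levels of different genes are set side by side on this scale. It divides by all annotated exons of a gene, from 1169 bases for CBR3 to 8765 for AKR1C1. Shares, sums and ranks of the genes thus depend on these lengths too. Reads per gene, computed back from the FPKM, came to between 15830381 and 20545811 per library. The SK/EPI and SK-BR-3 libraries were in a different table from the siRNA libraries and the tables may have been normalized separately, so tests were made only within a table. Below, the values of a group are given in the order of replicates 1, 2 and 3. ABCG2 was at 32.5, 32.7 and 33.7 FPKM in the SK/EPI-siNC libraries and at 2.84, 3.47 and 2.91 FPKM in the SK/EPI-siBCRP libraries, so the silenced gene followed its labels. ABCB1, which encodes the efflux pump P-gp, was at 205.7, 206.3 and 205.5 FPKM in the former and at 184.2, 189.9 and 186.1 FPKM in the latter. SK-BR-3 identity was checked on 6 markers. ERBB2, which encodes HER2, was at 659 ± 5.70 FPKM in SK-BR-3 and 133 ± 4.04 FPKM in SK/EPI cells (SD, n = 3), a log2 fold change of -2.30 (limma, Benjamini-Hochberg adjusted p = 2.0e-09). GRB7, which lies beside it, was also lower (log2 fold change -1.275). Of the epithelial keratins, KRT19 fell from 1651 ± 69.2 to 509 ± 10.6 FPKM (SD, n = 3), whereas KRT8 and KRT18 rose by 0.24 and 0.75 on the log2 scale, and EPCAM was not called. After silencing, all 6 markers were called lower, where 18.7% of all genes tested were. Their median log2 fold change was -0.20, from -0.49 for GRB7 to -0.06 for EPCAM. Of markers of other cells, the fibroblast gene DCN was at 0, the pan-leukocyte gene PTPRC was at or under 0.0116 FPKM on average in both lines, and the hepatocyte genes ALB, APOA1 and CYP3A4 were at or under 0.0494 FPKM on average. Of 3 immune markers, the monocyte gene CD14 alone was called, and was at 0.513 ± 0.0502 FPKM in SK-BR-3 and 27.4 ± 0.760 FPKM in SK/EPI cells (SD, n = 3). The immune marker CD3E was at 0.347 ± 0.0728 FPKM in SK-BR-3 and 0.180 ± 0.125 FPKM in SK/EPI cells (SD, n = 3). Of 4 fibroblast markers, PDGFRB was higher (0.300 ± 0.0258 FPKM in SK/EPI cells) and COL1A1 lower (0.794 ± 0.0240 FPKM). PDGFRB had enough reads for the filter on low values in SK/EPI cells only, so it had to differ in order to be tested. Over all genes tested in SK/EPI against SK-BR-3 cells, 74.9% were called. After silencing, CD14 was called higher, where 19.4% of all genes tested were, and CD3E was not called. CD14 was at 6.82 ± 0.608 FPKM in SK/EPI-siNC and 7.965 ± 0.422 FPKM in SK/EPI-siBCRP cells (SD, n = 3). Its log2 fold change was 0.20 (limma with Benjamini-Hochberg adjusted p = 0.0464). The part of other cells in the values below was not tested.

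The make-up of the reductase mRNA differed between SK-BR-3 and SK/EPI cells. In SK-BR-3 cells, AKR1A1 (40.6% on average), AKR7A2 (30.8%), CBR1 (20.25%) and CBR3 (7.70%) made up nearly all of the summed FPKM of the 10 genes, and AKR1B10 made up 0.360%. In SK/EPI cells AKR1B10 alone made up 70.1%, between 69.7% and 70.6% in single libraries. The sum was 90.5 ± 4.15 FPKM in SK-BR-3 and 261 ± 5.66 FPKM in SK/EPI cells (SD, n = 3). Without AKR1B10 it was 90.2 ± 4.09 FPKM and 77.9 ± 0.473 FPKM (SD, n = 3). In the second table AKR1B10 made up 69.3% of the sum in SK/EPI-siNC and 73.15% in SK/EPI-siBCRP cells. Summing treats the mRNAs as equal, although the enzymes differ in how well they reduce an anthracycline.

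**Figure D1:**
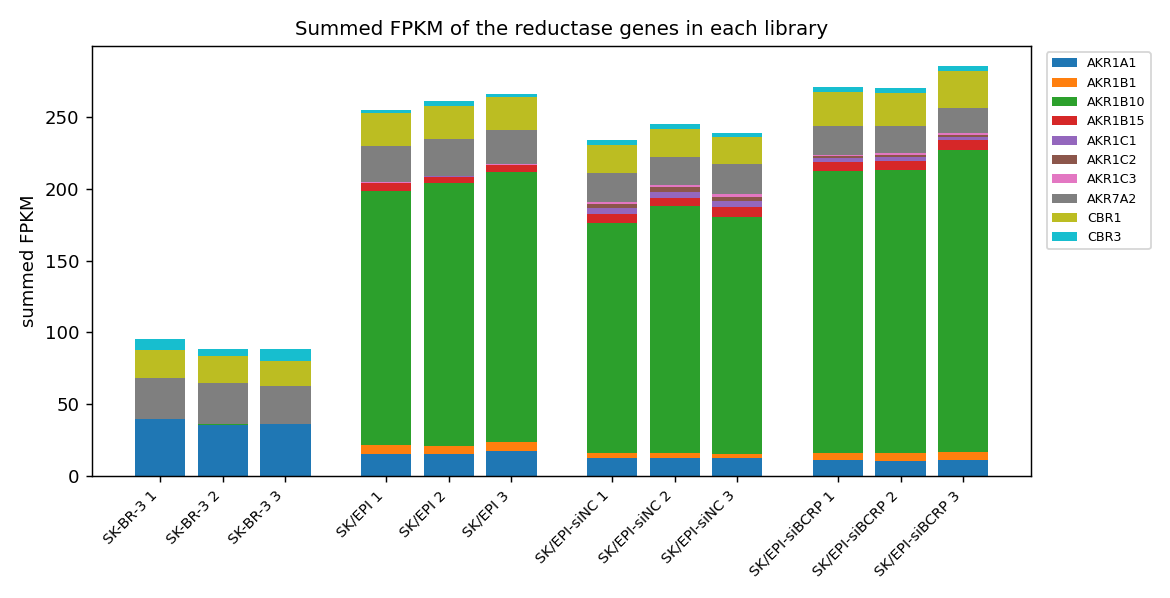
Summed FPKM of the 10 reductase genes in each of the 12 libraries, stacked by gene from 0, with the library's group and replicate number on the horizontal axis. AKR1B10 is hardly visible in the 3 SK-BR-3 libraries and takes 68.6% to 73.7% of the bar in the other 9, and the first 6 and last 6 bars come from tables that may have been normalized separately.

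Ranked by FPKM, AKR1A1 stood first in SK-BR-3 cells, followed by AKR7A2, CBR1 and CBR3, each with no overlap between its libraries and those of the next. Below them, AKR1B10 and AKR1B15 overlapped with each other, as did AKR1B1 with AKR1C1, and AKR1C3 with AKR1C2. In SK/EPI cells the order was AKR1B10, AKR7A2, CBR1, AKR1A1, AKR1B1, AKR1B15, CBR3, AKR1C1, AKR1C3 and AKR1C2. There AKR7A2 and CBR1 overlapped, as did AKR1C1 and AKR1C3, and the other neighbours in this order did not. In SK/EPI-siBCRP cells, CBR1 stood above AKR7A2 without overlap, whereas these genes overlapped in SK/EPI-siNC cells.

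Comparing SK/EPI with SK-BR-3 cells asks how the resistant line differs from its parent. With the threshold at an adjusted p-value of 0.05, 7 of the 10 were higher in SK/EPI cells and the other 3 lower. Of all 15823 genes tested, 74.9% were called in either direction, 37.9% upregulated and 37% downregulated, so being called is common here and the size of the change says more. When a log2 fold change of 1 or more in size was also asked for, AKR1B1, AKR1B10 and AKR1B15 were upregulated and AKR1A1 and CBR3 downregulated. Over all genes tested this held for 14.4%, 7.87% upregulated and 6.53% downregulated. For 6 of the 7 upregulated genes, the 3 AKR1B and the 3 AKR1C genes, only the SK/EPI libraries had enough reads to pass the filter on low values. These had to differ in order to be tested, so their number and their p-values in this comparison are given as a description. The libraries of SK/EPI and SK-BR-3 cells did not overlap for any of the 10 genes, as was so for 77.7% of all genes tested. A lower level in bulk RNA can come from fewer cells with the mRNA or from less mRNA per cell, and these cannot be told apart.

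**Figure D2:**
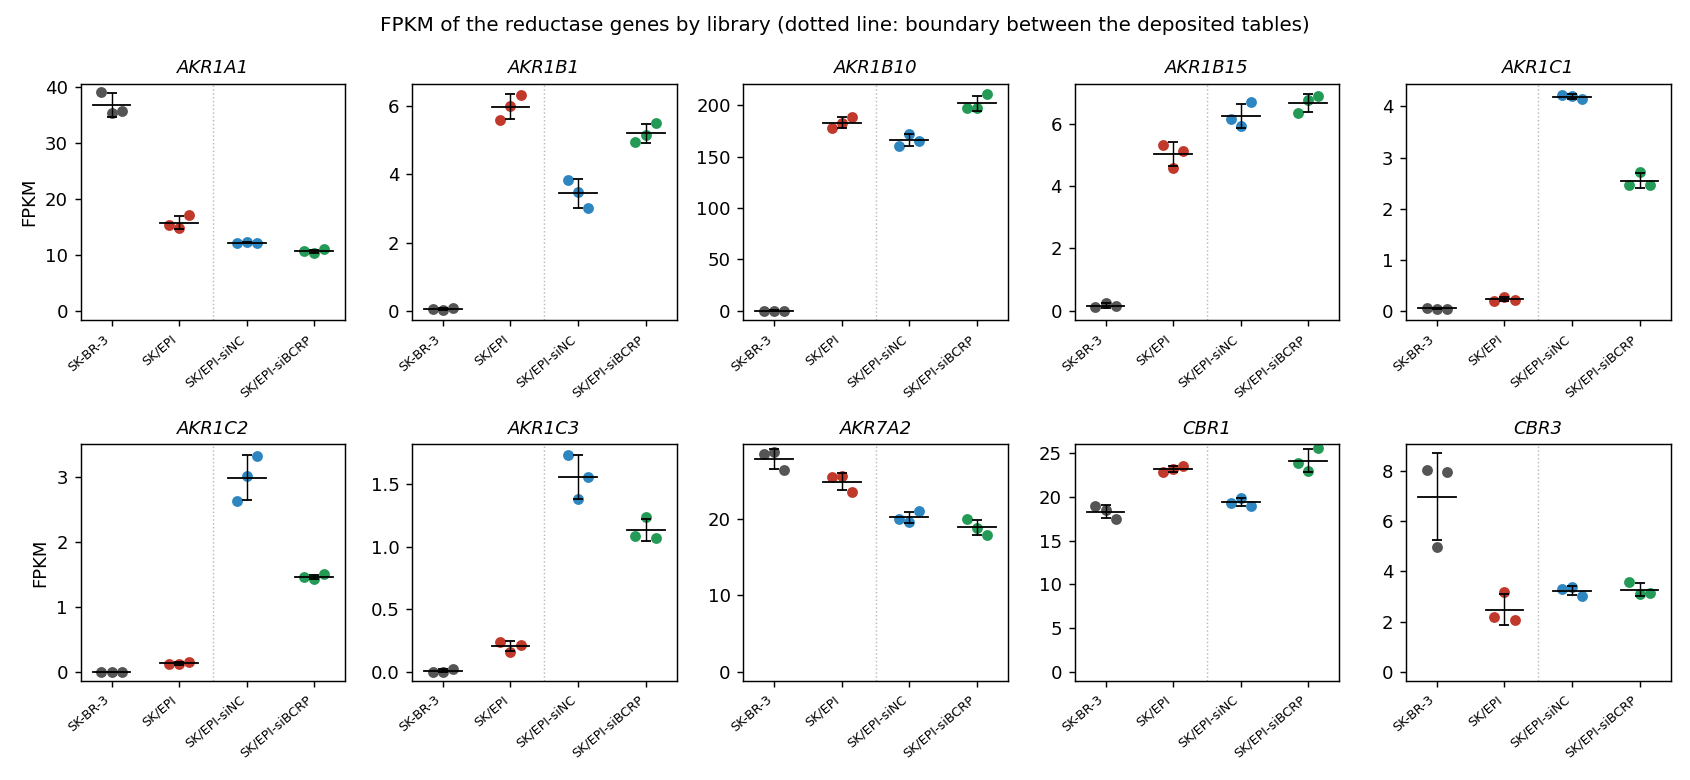
FPKM of each of the 10 reductase genes in the 12 libraries, one panel per gene with its own vertical axis from 0, where points are libraries, horizontal bars are group means and error bars are SDs (n = 3). AKR1B10 goes from at most 0.397 FPKM in SK-BR-3 to at least 177.7 FPKM in SK/EPI cells, and the AKR1C genes are highest in the SK/EPI-siNC libraries. The dotted line separates the tables, which may have been normalized separately.

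AKR1B10 reduces retinal and lipid aldehydes and is known to be scarce in most normal tissues other than the gut. It was at 0.397, 0.222 and 0.361 FPKM in SK-BR-3 libraries, on 11, 7 and 12 reads, and at 177.7, 183 and 188 FPKM in SK/EPI libraries, on 6074, 5769 and 6144 reads. All SK/EPI libraries thus lay far above all SK-BR-3 libraries. The log2 fold change on the log2(FPKM + 1) scale was 7.12 (standard error 0.06, limma with Benjamini-Hochberg adjusted p = 8.3e-11), the 5th largest rise among the 15823 genes tested. This scale understates the change of low genes, and the ratio of reads was 563 (95% interval 394 to 835, counting error only). The 3 SK/EPI libraries held 17987 reads of AKR1B10 and 943 of AKR1B15, so even all AKR1B15 reads together were few beside those of AKR1B10.

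AKR1B15, a close relative of AKR1B10 that acts on steroids and retinoids, was at 0.114, 0.250 and 0.142 FPKM in SK-BR-3 libraries. It was at 5.32, 4.59 and 5.14 FPKM in SK/EPI libraries, a log2 fold change of 2.37 (standard error 0.07, limma with Benjamini-Hochberg adjusted p = 4.0e-08). Its libraries did not overlap between the lines, and the ratio of reads was 29.5 (95% interval 20.5 to 44.0). SK/EPI cells had 4.78 to 5.71 AKR1B15 reads per 100 AKR1B10 reads, whereas the SK-BR-3 libraries together had 30 reads on each gene. What part of the AKR1B15 reads came from AKR1B10 mRNA was not tested.

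AKR1B1, the aldose reductase that turns glucose into sorbitol, went from 0.0689, 0.0303 and 0.0861 FPKM in SK-BR-3 libraries to 5.59, 6.002 and 6.32 FPKM in SK/EPI libraries. SK-BR-3 libraries had 2 to 6 reads on it and SK/EPI libraries 397 to 433. The log2 fold change was 2.71 (standard error 0.06, limma with Benjamini-Hochberg adjusted p = 8.0e-09), and the ratio of reads was 96.4 (95% interval 55.0 to 187). AKR1B1 has no shared stretch of 100 bases with another gene. Leaving out any library kept it upregulated. As it passed the filter through SK/EPI cells only, this and its p-value are given as a description.

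Other genes around the AKR1B cluster were also higher in SK/EPI cells. Within 500 kb of it, 6 other genes were tested, of which 4 were upregulated, none was downregulated and 2 were not called (limma, Benjamini-Hochberg adjusted). Their median log2 fold change was 1.09, from -0.16 for EXOC4 to 2.84 for CALD1, against a median of 0.01 over all genes tested, of which 37.9% were upregulated and 37% downregulated. Around the AKR1C cluster, all 4 other tested genes were downregulated, from CALML5 (log2 fold change -1.92) to AKR1E2 (-0.39). Around CBR1 and CBR3, 7 others were tested, of which 1 was upregulated and 3 were downregulated, from -2.16 for DOP1B to 0.26 for RUNX1. Around AKR7A2, 9 of 13 were downregulated and 2 upregulated, and around AKR1A1, 8 of 17 were downregulated and 3 upregulated. AKR1E2 and AKR7L, a neighbour of AKR7A2, had enough reads for the filter in SK-BR-3 cells only. They had to differ in order to be tested, so these counts are given as a description. DNA copy number was not measured, and its part in these values was not tested.

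**Figure D3:**
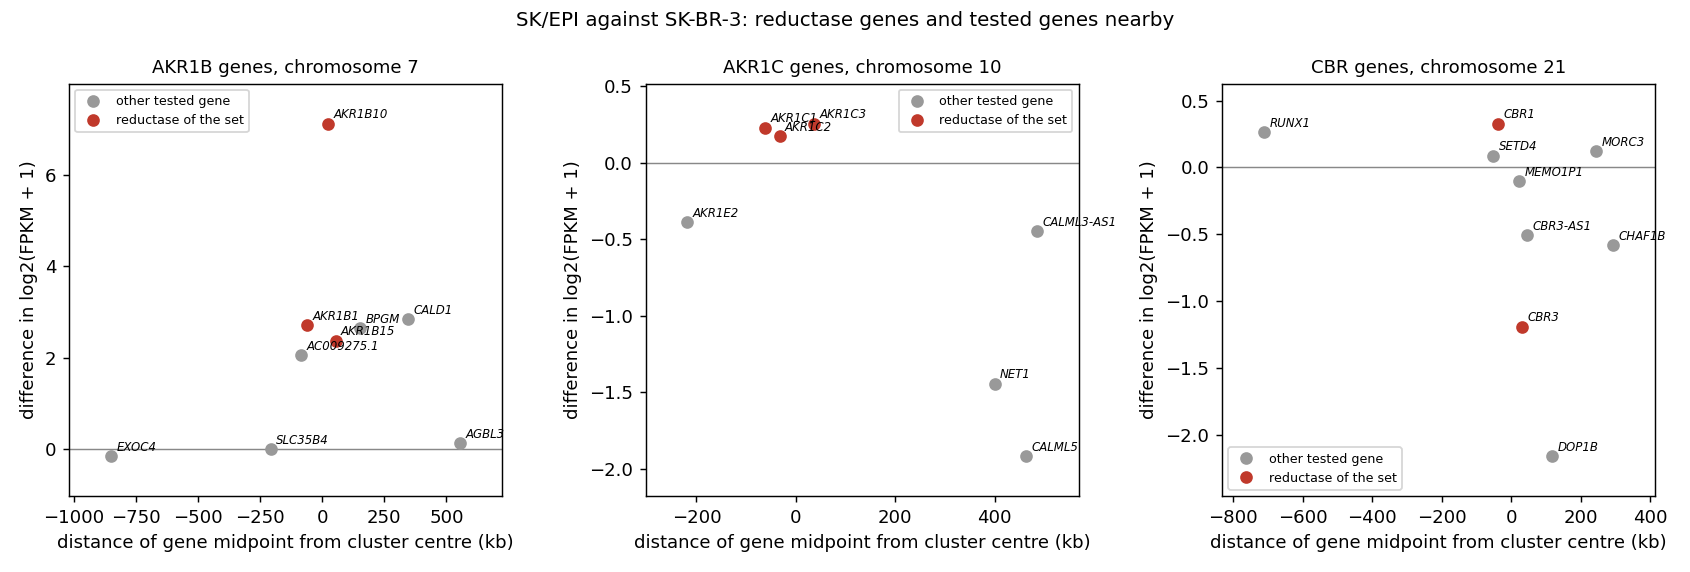
Difference in log2(FPKM + 1) between SK/EPI and SK-BR-3 cells for the AKR1B, AKR1C and CBR genes (red) and all other tested genes within 500 kb of them (grey). The horizontal axis is the distance of each gene's midpoint from the centre of the cluster in kb. AKR1A1, AKR7A2 and the genes around them are not shown. AKR1B10 stands at 7.12 with AKR1B1 at 2.71 and AKR1B15 at 2.37 beside it, while the AKR1C genes lie between 0.17 and 0.25 with their 4 neighbours below 0.

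The AKR1C genes encode hydroxysteroid dehydrogenases. AKR1C1 inactivates progesterone, AKR1C2 inactivates dihydrotestosterone, and AKR1C3 makes testosterone from androstenedione and is known to reduce doxorubicin. In this table they stayed low in both lines. AKR1C1 was at 0.0647, 0.0442 and 0.0419 FPKM in SK-BR-3 libraries (7 to 9 reads) and at 0.204, 0.278 and 0.207 FPKM in SK/EPI libraries (34 to 44 reads). The ratio of reads was 4.62 (95% interval 2.93 to 7.57), and the log2 fold change was 0.23 (standard error 0.04, limma with Benjamini-Hochberg adjusted p = 8.8e-04). AKR1C2 had no read in any SK-BR-3 library and 14, 14 and 18 reads in SK/EPI libraries, or 0.111, 0.120 and 0.149 FPKM. With a floor of 3 reads in each SK-BR-3 library, its level in SK/EPI cells was at least 4.78-fold higher (log2 fold change 0.17, limma with Benjamini-Hochberg adjusted p = 0.0015). AKR1C3 had 0, 0 and 2 reads in SK-BR-3 libraries and 21, 13 and 18 reads in SK/EPI libraries, at 0.236, 0.159 and 0.212 FPKM. The ratio of reads was 24.4, with a wide 95% interval of 6.43 to 207 (log2 fold change 0.25, limma with Benjamini-Hochberg adjusted p = 4.2e-04). All 3 genes had more reads in each SK/EPI library than in any SK-BR-3 library, at 0.278 FPKM or less in every library of this table. They passed the filter through SK/EPI cells only, so their p-values are given as a description.

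AKR1A1, the aldehyde reductase found in most tissues and a step of ascorbate synthesis in other mammals, was the most abundant of the 10 genes in SK-BR-3 cells. It was at 39.1, 35.4 and 35.6 FPKM in SK-BR-3 libraries and at 15.4, 14.8 and 17.1 FPKM in SK/EPI libraries. It was thus 2.33-fold lower in SK/EPI cells, a log2 fold change of -1.17 (standard error 0.06, limma with Benjamini-Hochberg adjusted p = 7.0e-07). AKR7A2, which reduces aflatoxin dialdehyde and succinic semialdehyde, was at 28.55, 28.7 and 26.3 FPKM in SK-BR-3 libraries. In SK/EPI libraries it was at 25.5, 25.6 and 23.6 FPKM. Its log2 fold change of -0.16 (standard error 0.05, limma with Benjamini-Hochberg adjusted p = 0.0168) did not hold when libraries were scaled by their reads on genes, which gave -0.07 (limma with Benjamini-Hochberg adjusted p = 0.198). Nor did it without SK-BR-3 replicate 1 or 2 or SK/EPI replicate 3 (limma with Benjamini-Hochberg adjusted p = 0.0503, 0.0572 and 0.0604).

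CBR1, taken to be the main reductase of doxorubicin in many human tissues, differed little. It was at 18.9, 18.5 and 17.5 FPKM in SK-BR-3 libraries and at 22.9, 23.2 and 23.6 FPKM in SK/EPI libraries. It was 1.27-fold higher in SK/EPI cells (log2 fold change 0.33, standard error 0.04, limma with Benjamini-Hochberg adjusted p = 8.7e-05), with no overlap between the lines. CBR3, its less active relative, moved the other way. It was at 8.03, 4.97 and 7.95 FPKM in SK-BR-3 libraries and at 2.18, 3.17 and 2.055 FPKM in SK/EPI libraries, a log2 fold change of -1.19 (standard error 0.18, limma with Benjamini-Hochberg adjusted p = 4.8e-04). SK-BR-3 replicate 2 lay nearest to the SK/EPI libraries, and the standard error was the widest of the 10 genes. CBR3-AS1 on the opposite strand was also lower, at 0.790 ± 0.0914 FPKM in SK-BR-3 and 0.260 ± 0.0670 FPKM in SK/EPI cells (SD, n = 3; log2 fold change -0.51, limma with Benjamini-Hochberg adjusted p = 9.5e-05). Which strand the reads of the shared exons came from cannot be told apart. AP000688.1, which overlaps CBR1, had too few reads to be tested.

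**Figure D4:**
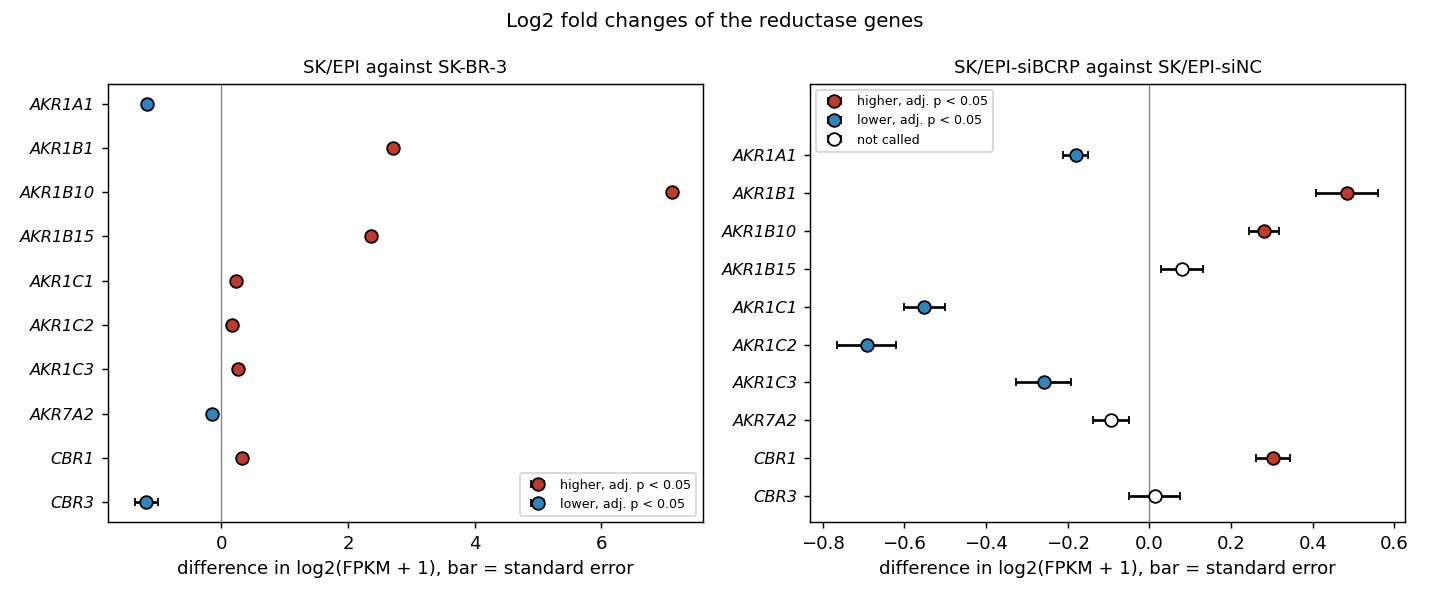
Log2 fold changes on the log2(FPKM + 1) scale with standard errors for the 10 reductase genes, SK/EPI against SK-BR-3 on the left and SK/EPI-siBCRP against SK/EPI-siNC on the right, with different horizontal axes and with most standard errors on the left narrower than the points. On the left AKR1B10 reaches 7.12, and on the right no gene passes 1 in either direction, with AKR1C2 lowest at -0.69 and AKR1B1 highest at 0.48.

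Comparing SK/EPI-siBCRP with SK/EPI-siNC cells asks what silencing the pump does in resistant cells. Of the 10 genes, 3 were upregulated (AKR1B1, AKR1B10 and CBR1), 4 were downregulated (AKR1A1, AKR1C1, AKR1C2 and AKR1C3) and 3 were not called (AKR1B15, AKR7A2 and CBR3). Over all 16298 genes tested, 38.1% were called, 19.4% upregulated and 18.7% downregulated. On the log2(FPKM + 1) scale, none of the 10 was called with an absolute log2 fold change of 1 or more (limma, Benjamini-Hochberg adjusted). Of all genes tested, only 0.411% were, 0.0675% upregulated and 0.344% downregulated. This scale understates the change of low genes, and AKR1C2 was 2.045-fold lower by mean FPKM. All 10 genes had enough reads in both groups to pass the filter. The sum over the 10 genes was 276 ± 8.51 FPKM in SK/EPI-siBCRP and 239.4 ± 5.74 FPKM in SK/EPI-siNC cells (SD, n = 3). Without AKR1B10 it was 74.0 ± 1.22 FPKM and 73.5 ± 0.327 FPKM (SD, n = 3).

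The AKR1C genes were lower after silencing. AKR1C1 was at 4.23, 4.21 and 4.14 FPKM in SK/EPI-siNC libraries and at 2.46, 2.72 and 2.46 FPKM in SK/EPI-siBCRP libraries. It was 1.65-fold lower in the silenced cells (log2 fold change -0.55, standard error 0.05, limma with Benjamini-Hochberg adjusted p = 1.8e-04). AKR1C2 was at 2.63, 3.01 and 3.32 FPKM in SK/EPI-siNC libraries and at 1.455, 1.43 and 1.497 FPKM in SK/EPI-siBCRP libraries, 2.045-fold lower (log2 fold change -0.69, standard error 0.07, limma with Benjamini-Hochberg adjusted p = 3.2e-04). Neither gene's groups overlapped, on 183 to 845 reads per library. AKR1C2 had 45.9 to 59.1 reads per 100 reads of AKR1C1 in SK/EPI-siNC and 38.8 to 44.8 in SK/EPI-siBCRP libraries. As these genes share stretches, what part of one gene's change was read from the other was not tested.

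AKR1C3 was at 1.73, 1.38 and 1.55 FPKM in SK/EPI-siNC libraries and at 1.09, 1.24 and 1.07 FPKM in SK/EPI-siBCRP libraries, on 94 to 179 reads per library. Its groups did not overlap, as was so for 50.9% of all genes tested. The log2 fold change of -0.26 (standard error 0.07, limma with Benjamini-Hochberg adjusted p = 0.0213) was no longer called when the replicate number was added as a block (limma with Benjamini-Hochberg adjusted p = 0.0524), without a filter on low values (adjusted p = 0.109), or without SK/EPI-siNC replicate 1 or 3 or SK/EPI-siBCRP replicate 1 or 3 (adjusted p = 0.0626, 0.0565, 0.0627 and 0.0657). Other genes near the cluster did not show a common direction, since of 2 tested NET1 fell (log2 fold change -0.12) and AKR1E2 was not called (0.19).

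The promoters of the AKR1C genes are alike as well, so these genes resemble each other both in the transcript and ahead of it. RefSeq promoter windows of 300 bases (GRCh38.p14, 250 bases before to 50 after a transcript start) were found for AKR1A1, AKR1B1, AKR1C1, AKR1C2, AKR1C3, AKR7A2 and CBR1, and those of AKR1C1 and AKR1C2 were identical at 288 of 296 aligned positions (97.3%). The 56 bases below lie upstream of each start and hold the same run in both genes, at chr10:4963306-4963361 on the plus strand for AKR1C1 and chr10:5003915-5003970 on the minus strand for AKR1C2. AKR1C3 has a pair of starts in the table, with the matching bases at chr10:5048676-5048731 and chr10:5094296-5094351, both on the plus strand. Capitals mark the bases that differ from AKR1C1, 15 at the first and 7 at the second start of AKR1C3.
AKR1C1: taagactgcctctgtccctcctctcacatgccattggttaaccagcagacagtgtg
AKR1C2: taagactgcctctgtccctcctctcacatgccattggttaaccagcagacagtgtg
AKR1C3, first start: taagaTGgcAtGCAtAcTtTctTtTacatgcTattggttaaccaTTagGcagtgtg
AKR1C3, second start: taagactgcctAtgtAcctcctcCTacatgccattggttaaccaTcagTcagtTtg

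The core of the antioxidant response element, to which NRF2 binds, was looked for in these windows as TGACNNNGC on both strands. It was found in 13.3% of all 35116 promoter windows. Among the genes named above it occurred once for CBR1 and at 3 places for AKR7A2, and was not found in the windows of AKR1A1, AKR1B1 and the AKR1C genes. In CBR1 the match lay on the minus strand at bases -159 to -151 from the start and also fitted the longer core with an A after these letters, which 3.18% of all windows held. It is shown in capitals in 60 bases of that window, chr21:36069854-36069913 on the plus strand.
CBR1: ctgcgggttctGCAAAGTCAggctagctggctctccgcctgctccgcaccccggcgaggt
The AP-1 motif TGANTCA, which 7.71% of all windows held, was in none of these windows. A match is a run of letters and was not tested for binding. Bases outside these windows were not searched, and AKR1B10, AKR1B15 and CBR3 had no window to search.

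AKR1B10 was at 160.4, 172 and 165 FPKM in SK/EPI-siNC libraries and at 197, 197.5 and 210.4 FPKM in SK/EPI-siBCRP libraries. All silenced libraries lay above all controls, 1.22-fold on average (log2 fold change 0.28, standard error 0.04, limma with Benjamini-Hochberg adjusted p = 9.8e-04). On 5695 to 7751 reads per library, its change ranked 1390 from the top among 16298 genes. AKR1B1 was at 3.83, 3.47 and 3.00 FPKM in SK/EPI-siNC libraries and at 4.955, 5.14 and 5.48 FPKM in SK/EPI-siBCRP libraries. It was 1.51-fold higher in silenced cells, without overlap (log2 fold change 0.48, standard error 0.08, limma with Benjamini-Hochberg adjusted p = 0.0023). AKR1B15 was at 6.16, 5.92 and 6.68 FPKM in SK/EPI-siNC libraries and at 6.35, 6.76 and 6.875 FPKM in SK/EPI-siBCRP libraries. Its groups overlapped and its log2 fold change of 0.08 (standard error 0.05) was not called (limma with Benjamini-Hochberg adjusted p = 0.268), with a ratio of reads of 1.07 (95% interval 0.987 to 1.15, counting error only). SLC35B4 (log2 fold change 0.81) and CALD1 were upregulated and BPGM (-0.39) downregulated among the 6 other tested genes near this cluster.

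CBR1 was at 19.3, 19.9 and 19.0 FPKM in SK/EPI-siNC libraries and at 23.9, 23.0 and 25.6 FPKM in SK/EPI-siBCRP libraries. It was 1.25-fold higher in silenced cells (log2 fold change 0.30, standard error 0.04, limma with Benjamini-Hochberg adjusted p = 0.0012). AKR1A1 was at 12.2, 12.3 and 12.1 FPKM in SK/EPI-siNC libraries and at 10.6, 10.4 and 10.97 FPKM in SK/EPI-siBCRP libraries, a log2 fold change of -0.18 (standard error 0.03, limma with Benjamini-Hochberg adjusted p = 0.0032). For both genes the groups did not overlap. AKR7A2 was at 20.01, 19.6 and 21.01 FPKM in SK/EPI-siNC libraries and at 19.9, 18.9 and 17.9 FPKM in SK/EPI-siBCRP libraries. CBR3 was at 3.30, 3.37 and 3.03 FPKM and 3.56, 3.12 and 3.14 FPKM in the same order. Both overlapped between groups, and their log2 fold changes of -0.09 and 0.01 were not called (limma with Benjamini-Hochberg adjusted p = 0.132 and 0.894). The ratio of reads was 0.935 for AKR7A2 (95% interval 0.880 to 0.993) and 1.009 for CBR3 (95% interval 0.838 to 1.215), counting error only. Without SK/EPI-siBCRP replicate 1, AKR7A2 was called lower (log2 fold change -0.13, limma with Benjamini-Hochberg adjusted p = 0.0472).

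The SK/EPI-siNC and SK/EPI libraries are both of resistant cells without silencing, and their levels are set side by side here with no test, since they come from tables that may have been normalized separately and differ in transfection. AKR1C1, AKR1C2 and AKR1C3 were 18.3, 23.6 and 7.68 times as high in SK/EPI-siNC as in SK/EPI cells by mean FPKM, and 19.2, 24.9 and 8.07 times with both scaled by reads on genes. For the other 7 genes the FPKM ratio was between 0.576 (AKR1B1) and 1.31 (CBR3), and for AKR1B10 it was 0.907. The median log2 ratio of the 15152 genes tested in both tables was 0.04. The AKR1C genes thus stood apart from the other members between these groups, by more than the spread within either group. Transfection, handling and time between the experiments cannot be told apart here.

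The other enzymes around this pathway were taken from 7 lists of 87 genes in all. Their counts are to be read against the calls over all genes tested, 37.9% upregulated and 37% downregulated in SK/EPI against SK-BR-3 cells, and 19.4% and 18.7% after silencing. Among 13 other AKR genes, copies and the antisense gene CBR3-AS1, 7 were tested in SK/EPI against SK-BR-3 cells, of which 2 were upregulated and 4 downregulated. Of these 7, 4 (AKR1E2, AKR7L, KCNAB1 and KCNAB3) had enough reads for the filter in only 1 line, so the count is a description. AKR7A3, the neighbour and paralogue of AKR7A2, was at 10.01 ± 0.923 FPKM in SK-BR-3 and 1.008 ± 0.0980 FPKM in SK/EPI cells (SD, n = 3; log2 fold change -2.45, limma with Benjamini-Hochberg adjusted p = 3.8e-08). KCNAB2, a potassium channel subunit with an AKR fold, rose by 0.89 on the log2 scale. AKR1C4 was at 0 in both lines. After silencing, 3 of 6 tested genes of this list were upregulated, KCNAB2 (log2 fold change 0.48), AKR7A3 (0.39) and KCNAB3 (0.23), and none was downregulated (limma, Benjamini-Hochberg adjusted).

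Of 14 other SDR carbonyl reductases, 12 were tested in SK/EPI against SK-BR-3 cells, of which 6 were upregulated and 6 downregulated, where 74.9% of all genes tested were called. DHRS7, an SDR of the endoplasmic reticulum, went from 17.3 ± 0.536 to 88.2 ± 5.895 FPKM (SD, n = 3; log2 fold change 2.285, limma with Benjamini-Hochberg adjusted p = 7.7e-09). DHRS3, which reduces retinal to retinol, went from 35.7 ± 0.769 to 11.6 ± 0.526 FPKM (SD, n = 3; log2 fold change -1.54, limma with Benjamini-Hochberg adjusted p = 1.5e-08), and RDH10, which oxidises retinol, fell by 1.02 on the log2 scale. After silencing, 5 of 13 tested were upregulated and 2 downregulated, where 38.1% of all genes tested were called, with RDH11, a retinal reductase, first at a log2 fold change of 0.66.

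Quinone and one-electron reductases act on the ring system of the drug in place of its side chain. Of 10, 6 were tested in SK/EPI against SK-BR-3 cells. POR, the cytochrome P450 reductase that can give an anthracycline a single electron, was at 50.8 ± 1.47 FPKM in SK-BR-3 and 104 ± 2.96 FPKM in SK/EPI cells (SD, n = 3; log2 fold change 1.02, limma with Benjamini-Hochberg adjusted p = 8.1e-08). NQO1, the quinone reductase, went the other way, from 108 ± 2.89 to 74.1 ± 1.23 FPKM (SD, n = 3; log2 fold change -0.54, limma with Benjamini-Hochberg adjusted p = 2.0e-06), as did CYB5R3 (-0.25). After silencing, 1 of 7 tested was upregulated (CYB5R3, 0.24) and 1 downregulated (XDH, -0.18), and POR and NQO1 were not called. XDH had enough reads for the filter in SK/EPI-siNC cells only, so it had to differ in order to be tested.

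UGT2B enzymes are known to add glucuronic acid to epirubicin and epirubicinol. None of the 7 UGT2B genes listed reached the filter on low values in either table. UGDH, which makes the UDP-glucuronic acid they use, fell by 0.81 on the log2 scale in SK/EPI compared with SK-BR-3 cells. After silencing it went from 7.37 ± 0.274 to 2.54 ± 0.251 FPKM (SD, n = 3; log2 fold change -1.25, limma with Benjamini-Hochberg adjusted p = 1.3e-05). On the log2(FPKM + 1) scale UGDH was the only gene of the 7 lists past an absolute change of 1 between the siRNA groups.

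The reductases need NADPH. Of 15 genes that supply it, 14 were tested in SK/EPI against SK-BR-3 cells, with 4 upregulated and 9 downregulated and a median log2 fold change of -0.31, against 0.01 over all genes tested, of which 74.9% were called and 37% downregulated. One of the 14, NNT, had enough reads for the filter in SK-BR-3 cells only. The mitochondrial IDH2 fell by 1.24 on the log2 scale. The cytosolic IDH1 went from 15.7 ± 0.274 to 41.5 ± 0.606 FPKM (SD, n = 3; log2 fold change 1.345, limma with Benjamini-Hochberg adjusted p = 7.5e-09). After silencing, 4 of 13 were upregulated, among them IDH1 (log2 fold change 0.21), and 5 were downregulated, with ME1 (malic enzyme) first at -0.33, where 38.1% of all genes tested were called.

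Of 12 NRF2 regulators and targets, 6 were upregulated and 5 downregulated in SK/EPI compared with SK-BR-3 cells, with a median log2 fold change of 0.12. Over all genes tested, 74.9% were called and the median was 0.01. HMOX1, the haem oxygenase, went from 5.39 ± 0.2205 to 26.0 ± 0.808 FPKM (SD, n = 3; log2 fold change 2.08, limma with Benjamini-Hochberg adjusted p = 4.8e-09). SLC7A11 (0.76) and NFE2L2, which encodes NRF2 itself (0.59), were also higher, while GCLC (-0.59), NQO1 (-0.54) and SRXN1 (-0.47) were lower. After silencing, none of the 12 was upregulated and 3 were downregulated (limma, Benjamini-Hochberg adjusted), OSGIN1 (-0.22), NFE2L2 (-0.16) and HMOX1 (-0.13). Over all genes tested, 19.4% were upregulated and 18.7% downregulated.

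Of 15 steroid, retinoid and prostaglandin enzymes that share substrates with the AKRs, 13 were tested in SK/EPI against SK-BR-3 cells, with 5 upregulated and 6 downregulated. Of these, HSD17B2 and ALDH1A1 passed the filter through SK-BR-3 cells only and ALDH1A2 and PTGDS through SK/EPI cells only, so these 4 had to differ in order to be tested. HSD17B14 and HSD17B11, hydroxysteroid dehydrogenases, rose by 2.51 and 1.97 on the log2 scale, and ALDH1A2, which makes retinoic acid from retinal, rose by 1.70. SRD5A3, a polyprenol reductase of the steroid 5-alpha-reductase family, went from 20.5 ± 0.0498 to 3.78 ± 0.0644 FPKM (SD, n = 3; log2 fold change -2.17, limma with Benjamini-Hochberg adjusted p = 1.6e-09). ALDH1A1 had no read in SK/EPI cells and was at 0.889 ± 0.1305 FPKM in SK-BR-3 cells. After silencing, 3 of the 12 tested (HSD17B1, HSD17B2 and PTGDS) passed the filter through 1 group only, and 4 were upregulated and 2 downregulated, among them ALDH1A3, from 24.25 ± 0.281 to 13.45 ± 0.2925 FPKM (SD, n = 3; log2 fold change -0.81, limma with Benjamini-Hochberg adjusted p = 3.2e-06).

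**Figure D5:**
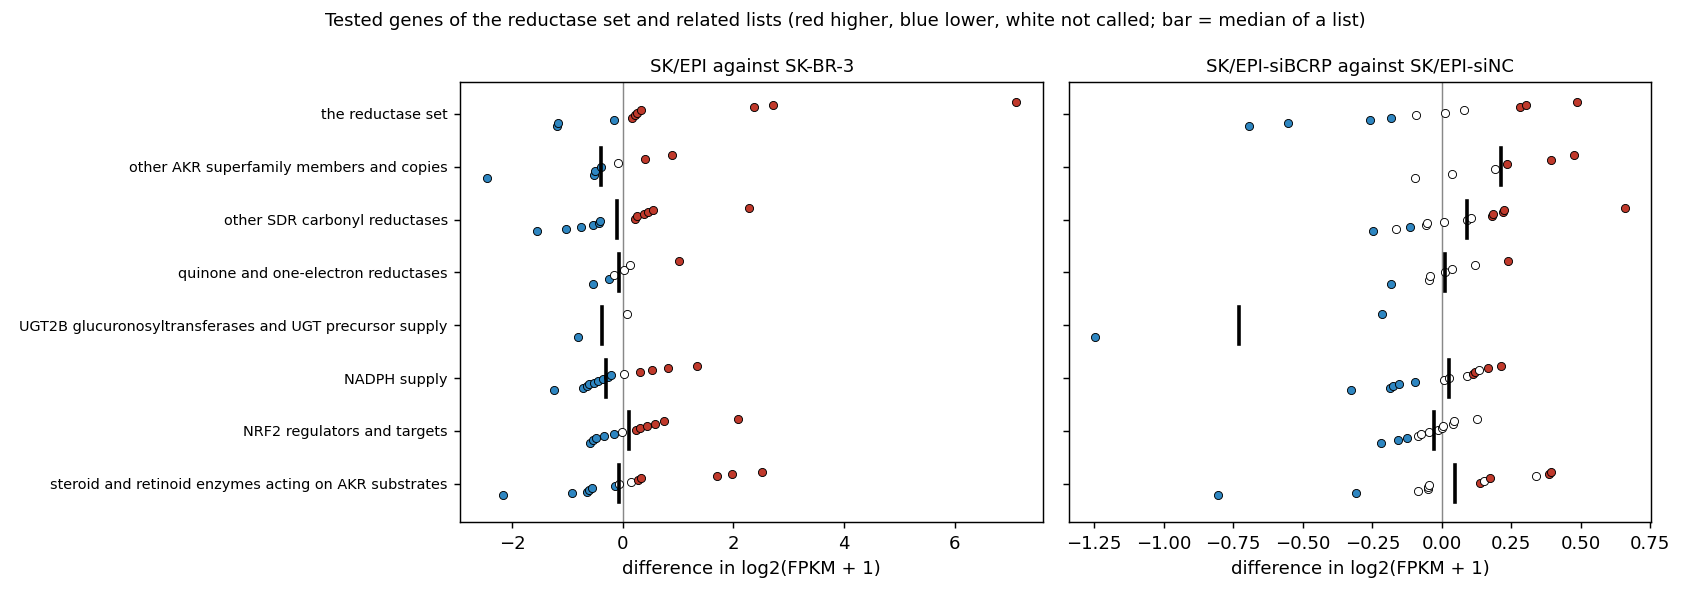
Differences in log2(FPKM + 1) of the 10 reductase genes and the tested genes of the 7 related lists, one point per gene, in SK/EPI against SK-BR-3 cells (left) and SK/EPI-siBCRP against SK/EPI-siNC cells (right), with red for higher, blue for lower, white for not called and a black bar for the median of each list. AKR1B10 lies to the right of every other gene shown on the left at 7.12, and UGDH lies to the left of every other gene on the right at -1.25.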

How the data were processed

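Poly-A selected RNA of 12 libraries was sequenced by the authors' provider. The submitters' processing notes name HISAT2 2.0.5, featureCounts 1.5.0-p3, DESeq2 1.16.1 and hg38, while strand and multi-read settings are not given in the sources used here. The authors deposited normalized values for 58735 genes in 2 tables of 6 libraries without naming their unit, and the values were read as FPKM. FPKM times merged exon length in GENCODE 29 came in whole steps, each worth 1 read, in 100% of values above 0 (tolerance 0.05 reads), which gave reads per gene. These reads came to 99.75% to 101% of the total the authors had divided by in SK-BR-3 and 92.75% to 95.45% in SK/EPI libraries. The share was 89.5% to 90.1% in SK/EPI-siNC and 90.4% to 90.7% in SK/EPI-siBCRP libraries. Scaling by reads on genes shifted the log2 fold changes of single genes by a median of 0.07 and -0.01 in the 2 tables. Replicates differed by more than counting noise (chi-square per degree of freedom 1.62 to 3.95). The paper states triplicates, and if these were not separate cultures the p-values measure technical spread only.

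A gene was tested if 3 or more libraries of its table had 10 or more reads after scaling to the median library size and the table had 15 or more on it, and each table was fitted alone with limma 3.58.1 (eBayes with trend, group only) in R 4.3.3 on log2(FPKM + 1). P-values were adjusted over all genes tested by Benjamini-Hochberg (threshold 0.05). The steps were tested on simulated data. Intervals of read ratios are exact at 95%, and floors are 3 reads per library. Both cover counting error only. The members and lists were chosen with earlier results of these data known. Named genes are the members, ABCG2, ABCB1, exon-overlapping genes, at most 3 called genes per list and direction, and cluster neighbours as counts and a range. AKR1C4, the cell markers and, for the siRNA groups, CALD1, POR and NQO1 were named beyond this rule after their values were seen. Deviations from the group mean correlated at -0.05 to -0.002 and at 0.009 to 0.06 between same-numbered libraries of the 2 tables. Between libraries of different numbers they correlated at -0.01 to 0.05 and at -0.05 to 0.03. All were weak, so the replicate number was used as a block only as an alternative. Sequence comparisons used GENCODE 29 transcripts and RefSeq promoters with Biopython 1.88 and Python 3.11.15.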

Additional observations from a re-analysis of the deposited data

How the results depend on the processing

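The members called in SK/EPI against SK-BR-3 cells were 10, and 9 when scaled by reads on genes with or without the mitochondrial chromosome. Asking for at least 10 reads in every library left 4 members to test, all 4 called. Asking for a log2 fold change of 1 or more in size left 5 of the members, 12 of the 56 called list genes and 2278 of the 11854 called genes, and between the siRNA groups 0 of 7, 1 of 32 and 67 of 6215 (limma with Benjamini-Hochberg adjustment). With each library left out in turn and the same genes tested, 9 to 10 members, 55 to 56 list genes and 11237 to 11547 genes were called in the first comparison, and 6 to 7, 25 to 31 and 5103 to 5403 in the second. The replicate block gave 10 members and 11656 genes in the first comparison (11459 shared with the fit without it) and 6 members and 5640 genes in the second (5373 shared). It changed the call of no member other than AKR1C3. Of 274 recomputed fold changes of members, 260 kept direction and side of the threshold, 11 were no longer called (AKR7A2 in the first and AKR1C3 in the second comparison), 1 was newly called and 2 changed sign. These were CBR3 after silencing, from -0.0352 to 0.0384 over the libraries left out, negative without SK/EPI-siBCRP replicate 1 (-0.0352) and without SK/EPI-siNC replicate 3 (-0.0223). The cause of these changes was not tested. In the first comparison the AKR1B and AKR1C genes passed the filter through SK/EPI cells only. They had to differ in order to be tested, so their kept calls there are a description. The log2 fold changes of low genes depended on the pseudocount and test, as for AKR1C2 in SK/EPI against SK-BR-3 cells, from 0.16 to 4.88, so read ratios carry their size. Stretches of 150 in place of 100 bases gave shared shares of 10.05% for AKR1C1, 13.7% for AKR1C2 and 0 for AKR1B10 and AKR1B15. At 2 to 15 reads per SK-BR-3 library, the AKR1B1, AKR1B10, AKR1B15 and AKR1C1 levels of that line are known only roughly.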
